A study of Mus musculus with 16 samples.

Results

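Interferon-stimulated genes are the genes that cells switch on when they sense interferon. A list of 37 of them, classical type I and type II targets, was followed through whole mouse liver RNA, and every gene of the list was found by its name among the 24421 gene rows of both count tables. By role, 11 are IFIT, OAS and MX genes, 9 are guanylate-binding proteins (GBP) and immunity-related GTPases (IRG), 4 are transcription factors, 3 are cytosolic RNA sensors and 10 are other effectors and feedback genes. The list was drawn up by function and not by its values here, although earlier results of these data were known when it was made.

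The livers came from mice engineered to lose ARID1B, or ARID1A and ARID1B together, in hepatocytes; these are alternative subunits of the BAF chromatin-remodelling complex. DKO livers carried floxed Arid1a (ARID1A f/f), floxed Arid1b (ARID1B f/f) and the Alb-Cre transgene, and their controls carried both floxed genes without Cre. BKO livers carried floxed Arid1b with Alb-Cre, and their controls carried floxed Arid1b without Cre. Each of the 4 groups held 4 libraries, with age, sex, strain and any treatment unstated in the labels. The labels do not say that each library is a separate animal, and controls F5 and F5-2 share the tag F5, so p-values measure the spread between these samples. Alb-Cre is driven by the albumin promoter and acts mainly in hepatocytes, with recombination also known in bile duct cells, while immune, endothelial and stellate cells are not its targets. No group lost ARID1A alone, and Cre was present only in the knockouts, so these effects cannot be told apart from those of the combined loss.

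Type I interferons act through IFNAR1 and IFNAR2 and the kinases JAK1 and TYK2, which lead to a complex with STAT2 and IRF9 that binds the interferon-stimulated response element (ISRE). Interferon gamma acts through IFNGR1 and IFNGR2 and the kinases JAK1 and JAK2, and its targets often carry the gamma-activated site (GAS). IFIT, OAS and MX genes are mostly known as type I targets that block viral RNA, and GBP and IRG genes as interferon gamma targets that attack intracellular bacteria and parasites, although many respond to both. In liver, hepatocytes, Kupffer cells and infiltrating leukocytes all express such genes.

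Levels below are normalized CPM, counts scaled to library size by TMM within each experiment. Values by library follow the order DKO-7068, DKO-7070, DKO-7112, DKO-7137 for DKO livers and WT-7067, WT-7069, WT-7114, WT-7139 for their controls, then F1, F3, F4, F6 for BKO livers and F2, F5-2, F5, F7 for their controls. The libraries of the DKO experiment held 8699417 to 11031443 counts each, and those of the BKO experiment, sequenced more deeply, 21151726 to 40551934. A gene was called at an edgeR Benjamini-Hochberg adjusted p under 0.05 over all genes tested. As a check of the labels, Arid1b was lower in every BKO library, at 40.1 to 48.4 CPM against 81.9 to 86.4 CPM in their controls, and in every DKO library, at 45.4 to 78.0 CPM against 80.7 to 97.3 CPM. Arid1a was at 99.6 to 114 CPM in DKO livers and 112 to 136 CPM in their controls, which overlap. Its counts come from the whole gene and from all liver cells, so this does not check the deleted exons.

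Promoters of called members are shown first, because ISRE and GAS elements there are the known route by which interferon acts on such genes. RefSeq starts on GRCm38.p6 were at hand for 27 of the 37 members, and the 250 bases before each start were searched on both strands for the ISRE core GAAANNGAAA (TTTCNNTTTC on the other strand) and for the GAS letters TTCNNNGAA, which read the same on both strands. ISRE letters stood before 15 of the 27 members, 55.6%, and before 936 of 27025 genes in all, 3.46%. GAS letters stood before 7 of the 27 members, 25.9%, and before 2197 of all genes, 8.13%. ISRE letters were no more frequent among the members called higher in DKO livers, 4 of 9 (44.4%), than among those not called, 11 of 18 (61.1%), and the promoters printed are not a sample of either. Shown are, of the members called in DKO livers, the first 3 IFIT, OAS and MX genes by p with a RefSeq promoter and the only GBP gene with one, and, added after the values were seen, Isg15 for its 3 adjacent matches and Gbp7 as a neighbour of Gbp2 that was not called. Capitals mark the matched letters, and all are written 5′ to 3′ along the strand of the gene. They lie at chr5:114896684-114896933 (plus strand), chr5:120777660-120777909 (minus), chr5:120907526-120907775 (minus), chr3:142620413-142620662 (plus), chr4:156200819-156201068 (minus) and chr3:142530086-142530335 (plus).
Oasl2: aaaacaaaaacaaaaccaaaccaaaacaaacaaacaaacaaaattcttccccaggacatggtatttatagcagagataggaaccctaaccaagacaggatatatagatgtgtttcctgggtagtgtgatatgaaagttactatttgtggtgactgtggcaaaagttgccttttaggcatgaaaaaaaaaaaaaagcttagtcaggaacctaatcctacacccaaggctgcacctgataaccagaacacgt
Oas3: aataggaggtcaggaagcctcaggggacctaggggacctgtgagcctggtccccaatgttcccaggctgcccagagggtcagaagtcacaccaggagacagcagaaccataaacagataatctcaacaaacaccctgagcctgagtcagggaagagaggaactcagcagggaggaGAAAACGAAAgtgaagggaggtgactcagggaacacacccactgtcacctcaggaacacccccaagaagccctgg
Oas1a: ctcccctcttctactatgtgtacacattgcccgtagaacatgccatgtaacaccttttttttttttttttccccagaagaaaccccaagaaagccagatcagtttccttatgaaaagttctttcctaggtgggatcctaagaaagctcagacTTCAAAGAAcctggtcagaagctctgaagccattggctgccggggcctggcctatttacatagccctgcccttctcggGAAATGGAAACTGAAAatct
Gbp2: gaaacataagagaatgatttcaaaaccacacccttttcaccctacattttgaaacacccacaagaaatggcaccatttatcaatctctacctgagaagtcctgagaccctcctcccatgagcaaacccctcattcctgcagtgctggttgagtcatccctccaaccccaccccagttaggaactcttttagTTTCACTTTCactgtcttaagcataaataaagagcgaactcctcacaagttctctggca
Isg15: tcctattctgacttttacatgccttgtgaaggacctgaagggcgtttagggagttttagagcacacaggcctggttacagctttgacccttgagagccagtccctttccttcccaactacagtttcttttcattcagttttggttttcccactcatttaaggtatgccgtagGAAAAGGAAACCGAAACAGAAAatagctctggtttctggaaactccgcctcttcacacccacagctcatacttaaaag
Gbp7: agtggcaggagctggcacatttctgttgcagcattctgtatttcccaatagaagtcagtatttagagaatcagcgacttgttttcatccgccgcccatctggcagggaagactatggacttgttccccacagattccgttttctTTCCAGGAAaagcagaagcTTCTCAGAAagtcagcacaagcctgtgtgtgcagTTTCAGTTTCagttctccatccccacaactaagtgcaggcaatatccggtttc
Oasl2 holds neither set of letters in this window. Oas3 has 1 ISRE match that starts 75 bases before the start, and Gbp2 has 1 at 59 bases. GENCODE M21 places the start of Gbp2 at 142620602, inside this window, so its match lies before the RefSeq start only. Oas1a has 2 overlapping ISRE matches, 20 and 14 bases before the start, and 1 GAS match at 98 bases. Isg15 has 3 overlapping ISRE matches at 78, 72 and 66 bases. Gbp7 has an ISRE match at 53 bases and GAS matches at 106 and 87 bases. A match is a description of the letters and does not show that a factor binds there.

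Across the list, 12 of 37 members were higher in DKO livers than in their controls, 1 was lower and 24 were not called. The higher ones were Mx2, Oas1a, Ifit2, Oasl2, Oas3, Oas2, Gbp2, Gbp6, Irf1, Ifih1, Isg15 and Ifi35, and the lower one was Iigp1. Of the 12848 genes tested, 19.2% were called higher and 16.6% lower, and the 12 of 37 members called higher are to be read against that background. The fitted log2 fold change was above 0 for 35 of 37 members, with a median of 0.50, against a median of 0.02 over all genes tested. In BKO livers 0 of 37 members were called by edgeR in either direction, where 0.185% of 14061 genes were called higher and 0.398% lower. At an unadjusted p under 0.05 edgeR had 3 members in BKO livers (Iigp1, Stat2 and Usp18), limma with voom called 0, and the DESeq2 Wald test, by which 1.44% of genes were lower, called 1, Iigp1. The BKO median was -0.01, with 17 members above 0 and 20 below.

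**Figure D1:**
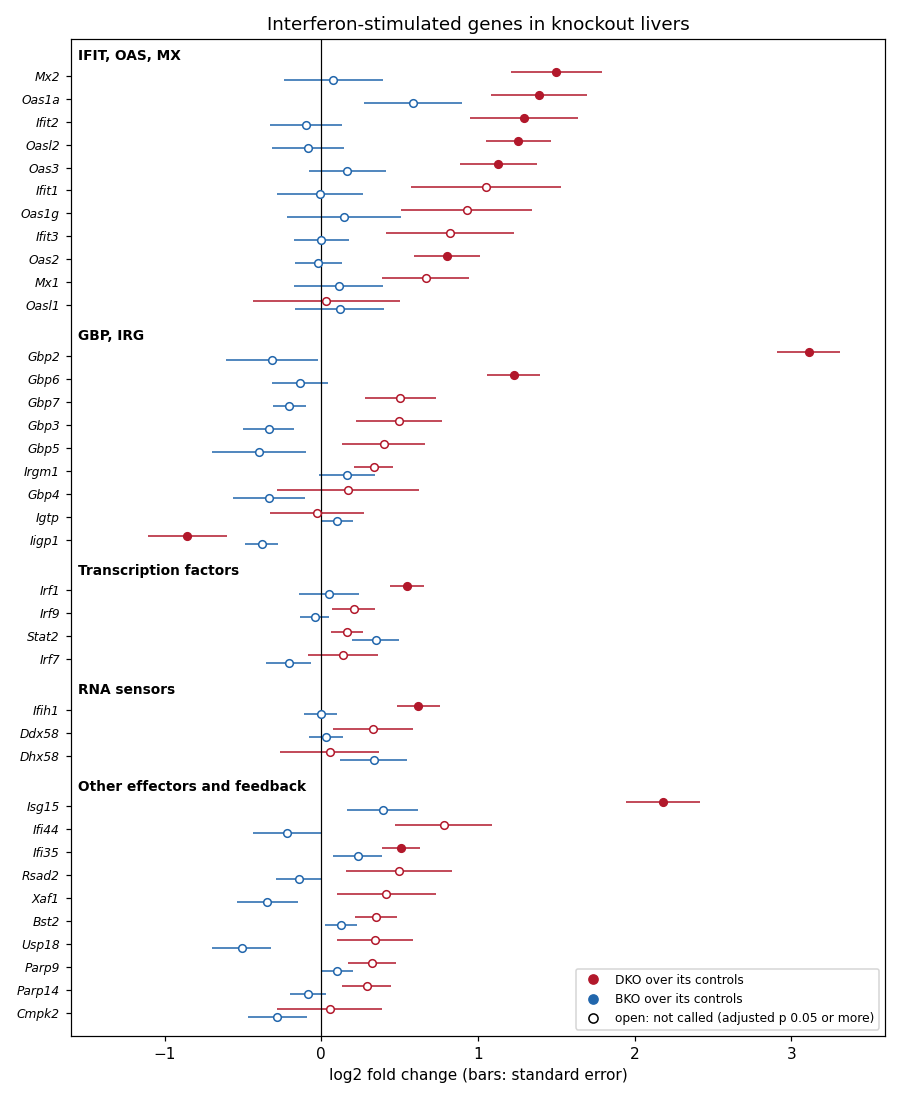
Log2 fold change of each of the 37 members (x axis, bars are standard errors, n = 4 libraries per group) by role group down the y axis, for DKO over its controls in red and BKO over its controls in blue, with filled points for called members. Red points lie right of 0 for 35 of 37 members and reach 3.11 for Gbp2, while Iigp1 lies left of 0 in both, and every BKO point is open.

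The IFIT, OAS and MX genes make antiviral proteins: IFITs bind foreign RNA ends, OAS enzymes make the 2-5A signal that activates RNase L, and MX proteins are dynamin-like GTPases that block viruses. Of these 11 genes, 6 rose in DKO livers and 5 were not called, all 11 had a log2 fold change above 0, and their median was 1.05. Mx2, annotated as a polymorphic pseudogene on the reference genome (chromosome 16, 97535308 to 97560900 on GRCm38), had 22.3, 19.0, 25.3 and 24.6 CPM in DKO livers, against 6.05, 4.68, 7.85 and 13.9 CPM in controls. Every DKO library was above every control, with WT-7139 the highest control (log2 fold change 1.5, SE 0.29, edgeR adjusted p = 0.00305).

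Oasl2, an OAS-like protein (chromosome 5, 114896936 to 114912234), had 25.5, 22.9, 19.9 and 13.9 CPM in DKO livers, against 8.84, 10.1, 8.86 and 6.44 CPM in controls. The groups did not overlap, and DKO-7137 was the lowest of the DKO libraries (log2 fold change 1.26, SE 0.21, edgeR adjusted p = 0.00104). Its neighbour Oasl1, which represses translation of Irf7 in mice, had 13.6, 17.0, 19.6 and 6.42 CPM in DKO livers, against 13.2, 4.49, 19.3 and 18.8 CPM in controls. These groups overlapped throughout, and the log2 fold change was 0.03 (SE 0.47, edgeR adjusted p = 0.966), although the starts of Oasl1 and Oasl2 lie only 26.3 kb apart.

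A cluster of 4 OAS members spans 177 kb of chromosome 5, and 3 of them were called. Oas1a (120896256 to 120907521), a synthetase, had 7.23, 9.18, 6.62 and 3.83 CPM in DKO livers, against 3.13, 3.25, 1.68 and 2.15 CPM in controls. All DKO libraries were above all controls (log2 fold change 1.39, SE 0.31, edgeR adjusted p = 0.00545). Oas3 (120753098 to 120777661) had 11.9, 11.97, 8.47 and 6.11 CPM in DKO livers, against 5.04, 4.96, 4.26 and 3.28 CPM in controls. Here too the groups were apart (log2 fold change 1.13, SE 0.25, edgeR adjusted p = 0.00513). Oas2 (120730333 to 120749853) had 19.2, 21.5, 19.9 and 12.4 CPM in DKO livers, against 12.4, 11.8, 10.2 and 7.32 CPM in controls. Here DKO-7137 nearly met the highest control, WT-7067 (log2 fold change 0.80, SE 0.21, edgeR adjusted p = 0.0127). The 4th gene of the cluster, Oas1g, had 3.13 ± 1.09 CPM in DKO livers and 1.63 ± 0.826 CPM in controls (SD, n = 4 each) and was not called (log2 fold change 0.93, edgeR adjusted p = 0.111). Oas1a and Oas1g are close copies, with 57.6% and 45.7% of the 50-base stretches of their transcripts also found in another gene, so counts of either may hold reads of the other.

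Ifit2, Ifit3 and Ifit1 lie within 99.3 kb of chromosome 19 and showed the same split between libraries. Ifit2 (34550694 to 34576419) had 22.8, 25.6, 12.05 and 7.87 CPM in DKO livers, against 6.05, 7.06, 6.84 and 8.08 CPM in controls. DKO-7068 and DKO-7070 stood far above all controls while DKO-7137 lay inside the control range (log2 fold change 1.29, SE 0.34, edgeR adjusted p = 0.0162). Ifit1, which binds RNA lacking a methylated cap, had 44.0, 61.7, 32.3 and 12.6 CPM in DKO livers, against 11.4, 12.8, 27.1 and 21.6 CPM in controls, and was not called (log2 fold change 1.05, SE 0.48, edgeR adjusted p = 0.126). Ifit3 had 30.3, 38.2, 21.7 and 8.60 CPM in DKO livers, against 14.3, 9.16, 17.1 and 15.6 CPM in controls, and was not called either (log2 fold change 0.82, edgeR adjusted p = 0.156). For both, DKO-7070 was the highest of all 8 libraries and DKO-7137 lay among or below the controls. Of the 50-base stretches of the Ifit3 transcript, 51.2% are also found in another gene, mainly Ifit3b. Mx1, defective in many laboratory strains, had 3.20, 4.68, 3.58 and 2.18 CPM in DKO livers, against 2.13, 2.1, 2.58 and 1.77 CPM in controls, with overlapping groups (log2 fold change 0.67, edgeR adjusted p = 0.0859).

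**Figure D2:**
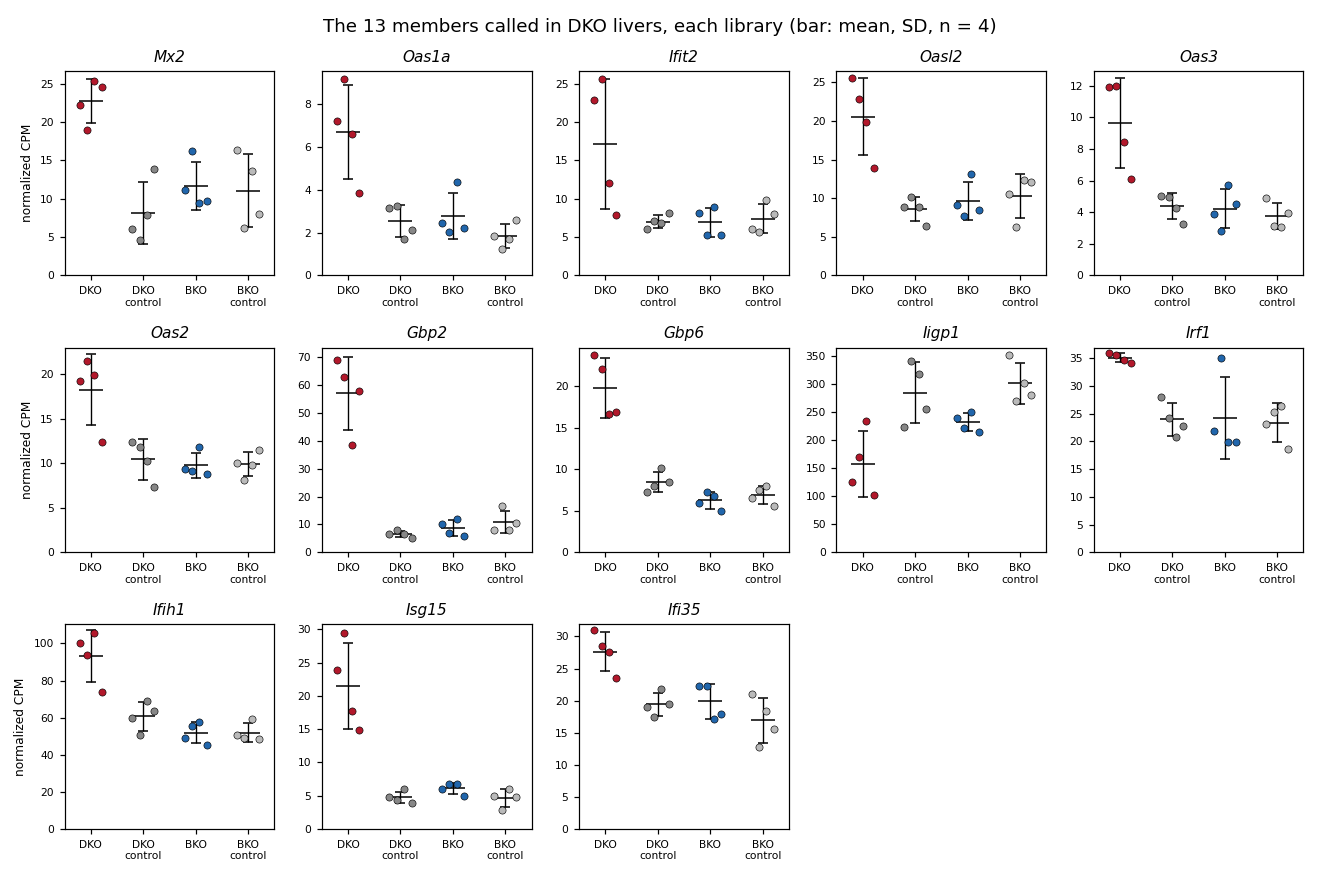
Normalized CPM (y axis, from 0) of the 13 members called in DKO livers in each of the 16 libraries, by group, with the mean and SD over n = 4 libraries. DKO points stand above their controls for 11 members, overlap them for Ifit2, and lie mostly below them for Iigp1, while BKO and BKO control points overlap for every panel but Iigp1.

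The GBP and IRG genes make interferon-inducible GTPases that gather on pathogens and on the vacuoles that hold them. Of these 9 genes, Gbp2 and Gbp6 rose in DKO livers, Iigp1 fell and 6 were not called, with a median log2 fold change of 0.40. The counts of 2 higher and 1 lower are close to the share over all genes, 19.2% higher and 16.6% lower, so they are no result about the family. Gbp2 (chromosome 3, 142620602 to 142638008) had 69.1, 62.8, 38.6 and 57.8 CPM in DKO livers, against 6.72, 8.02, 6.39 and 5.17 CPM in controls. All DKO libraries stood far above all controls, and the ratio of means, 8.68, was the largest of the 37 members (log2 fold change 3.11, SE 0.20, edgeR adjusted p = 4.57e-06). Gbp6 (chromosome 5, 105270702 to 105293698) had 23.7, 22.04, 16.6 and 16.9 CPM in DKO livers, against 7.28, 7.92, 10.2 and 8.45 CPM in controls. No libraries overlapped (log2 fold change 1.23, SE 0.17, edgeR adjusted p = 0.000363). In its transcript 70.7% of 50-base stretches are also found in another gene, mainly the overlapping model Gm43302, which was not analysed here.

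Gbp2 was the only called member of its cluster. Gbp5, Gbp7, Gbp3 and Gbp2 lie in this order within 144 kb of chromosome 3, and the first 3 were not called. Gbp7 had 66.3, 76.9, 48.0 and 44.2 CPM in DKO livers, against 38.3, 51.5, 48.0 and 28.0 CPM in controls (log2 fold change 0.51, SE 0.23, edgeR adjusted p = 0.11). Gbp3 averaged 22.1 ± 8.05 CPM in DKO livers and 15.7 ± 3.18 CPM in controls (log2 fold change 0.49, edgeR adjusted p = 0.194), and Gbp5 3.64 ± 0.855 CPM in DKO livers and 2.76 ± 0.732 CPM in controls (log2 fold change 0.40, edgeR adjusted p = 0.279), with SD over n = 4 each. Whether the neighbours differ from Gbp2 was not tested. Gbp4, on chromosome 5 with Gbp6, averaged 7.76 ± 4.27 CPM in DKO livers and 6.89 ± 3.40 CPM in controls (SD, n = 4 each) and was not called (log2 fold change 0.17, edgeR adjusted p = 0.804).

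**Figure D3:**
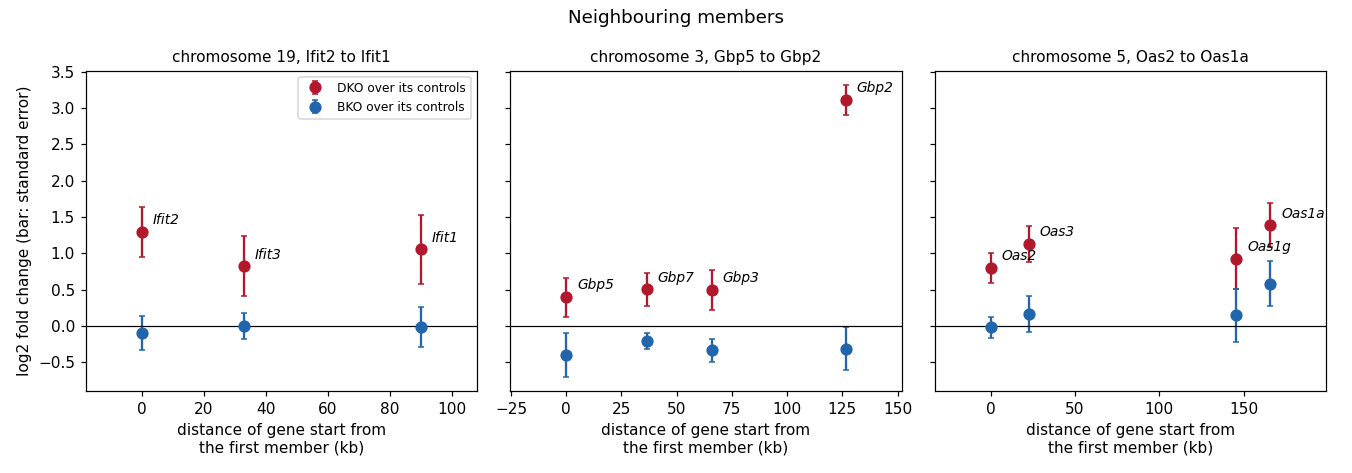
Log2 fold change (y axis, bars are standard errors, n = 4 libraries per group) against the distance of each gene start from the first member in kb (x axis) for the 3 stretches that hold at least 3 members, with DKO over its controls in red and BKO over its controls in blue. On chromosome 3 Gbp2 reaches 3.11 in DKO livers while Gbp5, Gbp7 and Gbp3 lie between 0.40 and 0.51, and on chromosome 5 the 4 OAS genes lie between 0.80 and 1.39.

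Iigp1, which disrupts the vacuole of Toxoplasma in mouse cells, ran the other way. It had 125, 169, 235 and 101 CPM in DKO livers, against 224, 341, 318 and 255 CPM in controls. DKO-7112 lay inside the control range and the other DKO libraries below it (log2 fold change -0.85, SE 0.25, edgeR adjusted p = 0.0241). The call ended without DKO-7068 (edgeR adjusted p = 0.0725), DKO-7070 (0.0516), WT-7069 (0.0628) or WT-7114 (0.0631), with DKO-7068 and DKO-7070 summed (0.0566) and with scaling by total counts only (0.0668), within a range of 0.00259 to 0.0725 over 18 alternatives. In BKO livers Iigp1 had 239, 222, 250.04 and 215 CPM, against 352, 270.2, 302 and 281 CPM in controls. Every BKO library was below every control, but edgeR did not call it (log2 fold change -0.38, SE 0.10, adjusted p = 0.155), and only the DESeq2 Wald test did (adjusted p = 0.0302, with a range of 0.0302 to 0.54 over 17 alternatives). The remaining IRG members had no call. Igtp, which guards host membranes with Irgm1, had 81.8, 73.5, 39.0 and 40.8 CPM in DKO livers, against 45.2, 88.4, 56.8 and 49.2 CPM in controls (log2 fold change -0.03, edgeR adjusted p = 0.955). Irgm1 averaged 58.4 ± 8.86 CPM in DKO livers and 46.4 ± 3.93 CPM in controls (SD, n = 4 each; log2 fold change 0.33, edgeR adjusted p = 0.0606).

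Among the transcription factors, Irf1, which drives many interferon gamma targets, rose in DKO livers and the factors of the type I complex did not pass the test. Irf1 (chromosome 11, 53770014 to 53778374) had 36.0, 35.5, 34.7 and 34.1 CPM in DKO livers, against 28.0, 24.2, 20.9 and 22.8 CPM in controls. The DKO libraries were close to each other and all above the controls (log2 fold change 0.55, SE 0.11, edgeR adjusted p = 0.00297). Irf7, which amplifies type I interferon production, had 56.8, 59.5, 65.2 and 28.0 CPM in DKO livers, against 50.3, 50.8, 45.5 and 43.4 CPM in controls. DKO-7137 was the lowest of all 8 libraries and the other DKO libraries were the highest (log2 fold change 0.14, edgeR adjusted p = 0.662). Stat2 had 124, 129, 131 and 106 CPM in DKO livers, against 106, 112, 109 and 112 CPM in controls (log2 fold change 0.16, edgeR adjusted p = 0.241). Irf9, the DNA-binding part of that complex, averaged 36.9 ± 3.25 CPM in DKO livers and 32.1 ± 5.99 CPM in controls (SD, n = 4 each; log2 fold change 0.21, edgeR adjusted p = 0.281).

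Of the RNA sensors, Ifih1, which encodes MDA5, a sensor of long RNA duplexes, rose. It (chromosome 2, 62595798 to 62646255) had 100.3, 93.7, 105 and 73.8 CPM in DKO livers, against 59.8, 50.6, 68.8 and 63.7 CPM in controls. The groups did not overlap (log2 fold change 0.62, SE 0.14, edgeR adjusted p = 0.0055). Ddx58, which encodes RIG-I, and Dhx58, which encodes LGP2, were not called, with log2 fold changes of 0.33 (edgeR adjusted p = 0.353) and 0.05 (edgeR adjusted p = 0.915).

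Isg15, a ubiquitin-like modifier, led the other effectors. It (chromosome 4, 156199424 to 156200818) had 23.9, 29.4, 17.7 and 14.9 CPM in DKO livers, against 4.81, 4.296, 5.95 and 3.91 CPM in controls. The ratio of means was 4.53 and the lowest DKO library was well above the highest control (log2 fold change 2.18, SE 0.24, edgeR adjusted p = 9.24e-05). Ifi35, an interferon-induced leucine zipper protein (chromosome 11, 101448407 to 101458698), had 31.0, 28.5, 27.6 and 23.5 CPM in DKO livers, against 19.0, 17.5, 21.8 and 19.4 CPM in controls (log2 fold change 0.51, SE 0.12, edgeR adjusted p = 0.00765). These groups did not overlap either. Among the called members, Irf1, Ifi35, Oas2 and Gbp2 overlap a gene on the other strand, and with the strand setting unknown reads of such pairs cannot be told apart. Usp18, the protease that removes ISG15 and dampens IFNAR2 signalling, averaged 17.2 ± 5.71 CPM in DKO livers and 13.6 ± 1.74 CPM in controls (SD, n = 4 each; log2 fold change 0.34, edgeR adjusted p = 0.302). Rsad2, which encodes viperin, had 15.2, 21.4, 17.0 and 7.98 CPM in DKO livers, against 8.28, 7.35, 17.5 and 10.7 CPM in controls (log2 fold change 0.50, edgeR adjusted p = 0.294). Its neighbour Cmpk2, a mitochondrial nucleotide kinase, had a log2 fold change of 0.05 (edgeR adjusted p = 0.92). The 5 others, Ifi44, Xaf1, Bst2 (tetherin), Parp9 and Parp14, had log2 fold changes of 0.29 (Parp14) to 0.78 (Ifi44) and edgeR adjusted p of 0.0662 (Bst2) to 0.338 (Xaf1), so none was called.

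Per kilobase of merged exons in GENCODE M21, the controls of the DKO experiment expressed Bst2 most, at 123 ± 15.7 CPM per kb, followed by Iigp1 at 48.9 ± 9.35, Igtp at 29.6 ± 9.69 and Stat2 at 18.5 ± 0.491 CPM per kb (SD, n = 4). Gbp5, Mx1 and Oas3 were the lowest, at 0.416 ± 0.110, 0.566 ± 0.0883 and 0.621 ± 0.115 CPM per kb. In DKO livers Isg15 stood 3rd at 28.4 ± 8.58 CPM per kb, against 6.27 ± 1.17 in controls, and Gbp2 5th at 22.7 ± 5.22 CPM per kb, against 2.61 ± 0.465 in controls. Their ranges over DKO libraries overlap those of Igtp, Iigp1 and Stat2, so the order among these 5 is not resolved, and the range of Gbp2 also reaches those of genes ranked lower, such as Ifi35 and Ifit1.

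The DKO libraries differed among themselves in a way that ran through the list. DKO-7137 was the lowest of the 4 DKO libraries for 29 of 37 members, 10 of them among the 11 IFIT, OAS and MX genes, and the highest for 0. The share of all genes for which DKO-7137 was the lowest was not counted, so whether this is particular to the list is not known. Relative to the mean of the controls, the median log2 ratio over the 11 IFIT, OAS and MX genes was 1.27 for DKO-7068, 1.42 for DKO-7070, 0.93 for DKO-7112 and 0.17 for DKO-7137, against -0.25 to 0.05 in the controls. Over the 9 GBP and IRG genes it was 0.68, 0.89, 0.05 and 0.09 in the same DKO libraries, against -0.28 to 0.29 in the controls, and here DKO-7112 was the lowest DKO library for 6 of 9. These medians do not hold for each member: Oasl1 was at -0.03 in DKO-7068, and Iigp1 at -1.19 and -0.75 in DKO-7068 and DKO-7070. The summed level of the 9 GBP and IRG genes, 473 and 517 CPM in DKO-7068 and DKO-7070, lay inside the control range of 390.3 to 578 CPM. Differences between single libraries were not tested. The 8 members for which DKO-7137 was not the lowest DKO library were Mx2, Gbp2, Gbp4, Gbp5, Gbp6, Irgm1, Igtp and Parp9. Without DKO-7137, 21 members were called higher, where 18.8% of all genes were, and Ifit1, Ifit3, Mx1, Gbp3, Irf7, Usp18, Ifi44, Bst2 and Parp14 were added to the 12.

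**Figure D4:**
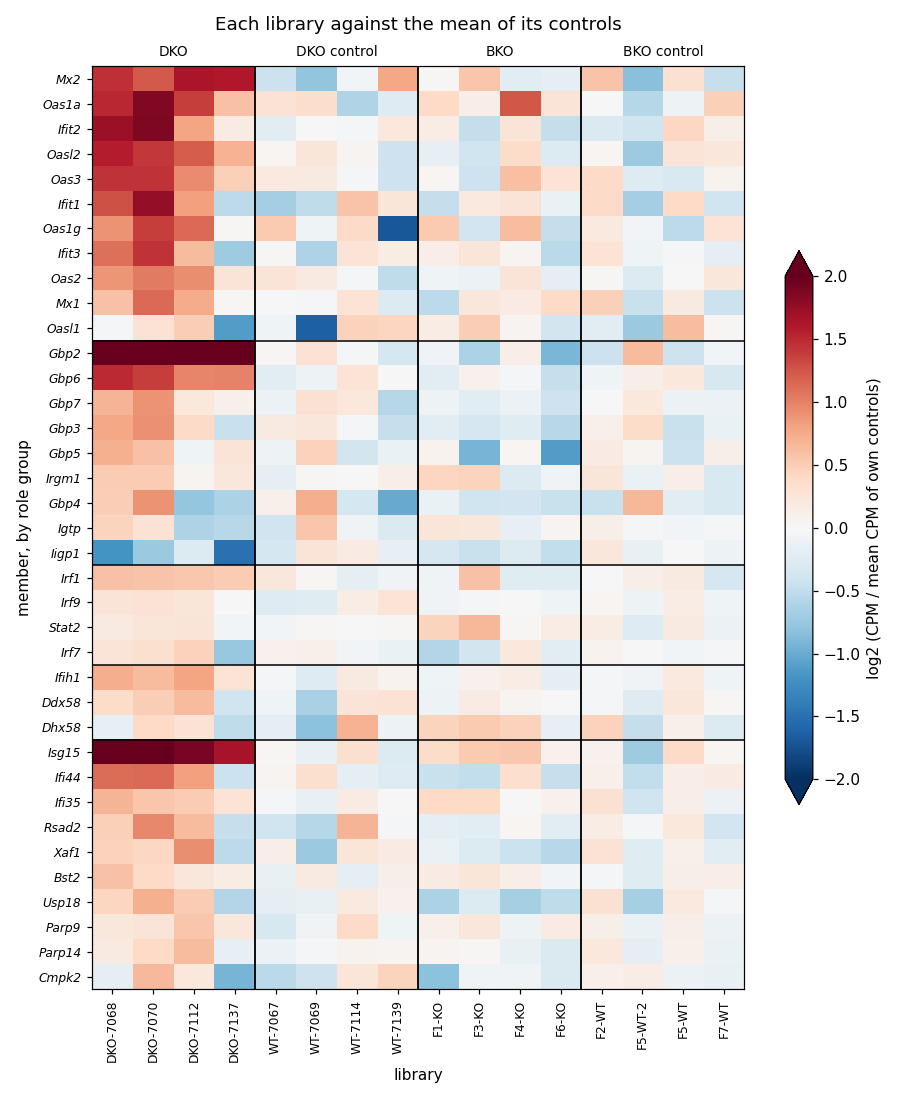
Log2 ratio of each library's CPM to the mean of its own controls (colour, from -2 in blue to 2 in red, with values beyond shown at the limit) for 37 members by role group (rows) in 16 libraries (columns). Red fills most of the DKO-7068, DKO-7070 and DKO-7112 columns, DKO-7137 is pale or blue for most members, Gbp2 and Isg15 are red in all 4, and the BKO columns show no shared colour.

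Library names in the labels carry numbers that begin with 70 or 71, which the labels do not explain. Each number series, split here by these digits, held 2 DKO livers and 2 controls. All 12 higher members had a DKO mean above the control mean within both series, with a median log2 ratio of 1.36 in the 70 series and 0.92 in the 71 series. Iigp1 was below in both, at -0.94 and -0.77. The calls came from these same libraries. For each of the 12 but Ifit2 every DKO library was above every control, which fixed the direction in both series, so it adds no support. Of the 24 members not called, 13 were above in both series. Ifit1 stood at a ratio of 4.37 in the 70 series and 0.923 in the 71 series. Gbp2 stood at 8.95 and 8.34. DKO-7068 and DKO-7070, the whole of the DKO libraries of the 70 series, were the closest of all replicate pairs: their counts differed by a chi-square per degree of freedom of 7.32, against 27.3 to 122 for the other pairs. With their counts summed as 1 library, the 12 higher members were still called.

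Whether the DKO effect on the list differed from the BKO effect was tested over all 16 libraries. Each knockout came from an experiment of its own, with a different depth. Genotype and experiment therefore cannot be told apart in this difference. The DKO effect was larger than the BKO effect for 8 of 37 members and smaller for 0, where 11.0% of 14050 genes were called higher and 11.5% lower. By edgeR at an unadjusted p under 0.05, 13 members were higher and 0 lower, and DESeq2 and limma with voom called 0 lower. Iigp1, the lower member in DKO livers, did not pass (difference -0.50, SE 0.29, edgeR adjusted p = 0.223). Gbp2 had 10.3, 6.98, 11.9 and 5.74 CPM in BKO livers, against 7.995, 16.7, 8.11 and 10.4 CPM in controls. These groups overlapped, and the DKO effect exceeded the BKO effect by 3.39 (SE 0.39, edgeR adjusted p = 2.6e-05). Isg15 had 6.03, 6.73, 6.81 and 4.95 CPM in BKO livers, against 4.997, 2.85, 6.07 and 4.82 CPM in controls, and the difference was 1.76 (SE 0.34, edgeR adjusted p = 0.00126). Gbp6 had 5.98, 7.32, 6.78 and 4.99 CPM in BKO livers, against 6.50, 7.52, 7.99 and 5.54 CPM in controls, and the difference was 1.33 (SE 0.24, edgeR adjusted p = 0.000808). In all 3 the BKO values lay within or next to the range of their controls.

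Oasl2 had 9.12, 7.75, 13.2 and 8.51 CPM in BKO livers, against 10.5, 6.20, 12.3 and 12.04 CPM in controls (difference 1.32, SE 0.33, edgeR adjusted p = 0.00837). Ifih1 had 49.0, 55.4, 57.4 and 45.2 CPM in BKO livers, against 50.5, 49.3, 59.3 and 48.7 CPM in controls (difference 0.59, SE 0.17, edgeR adjusted p = 0.0208). Both overlapped their controls, and the differences of Gbp2, Gbp6, Isg15, Oasl2 and Ifih1 were called under all 23 alternatives. Ifit2 had 8.19, 5.30, 8.85 and 5.31 CPM in BKO livers, against 6.08, 5.63, 9.84 and 8.04 CPM in controls (difference 1.36, SE 0.44, edgeR adjusted p = 0.0349). Mx2 had 11.2, 16.2, 9.44 and 9.75 CPM in BKO livers, against 16.3, 6.17, 13.6 and 7.997 CPM in controls (difference 1.39, SE 0.46, edgeR adjusted p = 0.0422). Oas2 had 9.37, 9.11, 11.8 and 8.74 CPM in BKO livers, against 10.1, 8.17, 9.80 and 11.54 CPM in controls (difference 0.79, SE 0.26, edgeR adjusted p = 0.0356). These 3 were less firm. They were no longer called, which left 5, without DKO-7068, DKO-7070, WT-7114, F6 or F5, while 14 members were called without DKO-7137. The 5 DKO-called members whose difference did not pass were Oas1a, Oas3, Irf1, Ifi35 and Iigp1.

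In BKO livers the median log2 fold change was 0.08 over the 11 IFIT, OAS and MX genes and -0.31 over the 9 GBP and IRG genes, against 0.00 over all genes tested. The GBP and IRG median moved to -0.09 without the control F5-2, which had the highest Gbp4, at 13.5 CPM against 6.29 to 7.41 CPM in the other controls. Of the 9, Irgm1 and Igtp were above 0, at 0.16 and 0.10, and Gbp2 to Gbp7 and Iigp1 were below. Whether the list medians differ between the role groups was not tested in either knockout.

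The interferons themselves were close to undetected. Of 21 interferon genes, Ifnk alone passed the count filter, at 2.95 ± 0.457 CPM in DKO livers and 2.09 ± 0.582 CPM in controls (SD, n = 4 each; log2 fold change 0.51, edgeR adjusted p = 0.164). Ifnb1 and the listed Ifna and Ifnl genes had 0 counts in all 8 libraries of the DKO experiment, where 3 counts amount to 0.246 to 0.379 CPM. Ifng averaged 0.0430 ± 0.0498 CPM in DKO livers and 0.0876 ± 0.109 CPM in controls (SD, n = 4 each), both under that floor.

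The counts of called genes in the lists that follow, markers included, are to be read against the shares over all genes in DKO livers, 19.2% higher and 16.6% lower. Receptors and kinases were higher for 4 of 8 tested genes in DKO livers, with a median log2 fold change of 0.42, against -0.11 in BKO livers. Il10rb, a receptor chain shared by IL-10 and lambda interferons, averaged 12.96 ± 0.983 CPM in DKO livers and 6.63 ± 1.48 CPM in controls (log2 fold change 0.96, edgeR adjusted p = 0.00196). Ifnar2, the signalling chain of the type I receptor, averaged 69.8 ± 10.7 CPM in DKO livers and 47.4 ± 3.37 CPM in controls (log2 fold change 0.56, edgeR adjusted p = 0.0057). Ifngr1 and Jak2 rose by 0.45 and 0.39 on the log2 scale (edgeR adjusted p = 0.0446 and 0.0301), and Ifnar1, Ifngr2, Jak1 and Tyk2 were not called. The DKO effect exceeded the BKO effect for Ifnar2 by 0.64 and for Il10rb by 1.07 on the log2 scale (edgeR adjusted p = 0.0114 and 0.0137). Ifnlr1 did not pass the count filter.

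Among 13 tested STAT and IRF genes outside the list, 1 rose and 3 fell in DKO livers, with a median of -0.05, and neither count stands out from the 19.2% higher and 16.6% lower over all genes. Irf8, a factor of myeloid cells, averaged 24.8 ± 5.67 CPM in DKO livers and 11.7 ± 3.25 CPM in controls (log2 fold change 1.08, edgeR adjusted p = 0.00395). Irf2, an antagonist of Irf1 at many promoters, averaged 46.6 ± 5.75 CPM in DKO livers and 67.0 ± 2.34 CPM in controls (log2 fold change -0.53, edgeR adjusted p = 0.00339). Stat5a and Irf2bpl fell by 0.79 and 0.29 on the log2 scale (edgeR adjusted p = 0.0154 and 0.0465), and Stat3 and Irf2bp2 were not called.

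Nucleic acid sensing genes outside the list were higher for 9 of 17 tested and lower for 1, with a median log2 fold change of 0.90 in DKO livers and 0.19 in BKO livers. Zbp1, a sensor of left-handed nucleic acid, had 52.1, 59.0, 47.5 and 30.7 CPM in DKO livers, against 8.17, 10.2, 10.5 and 4.67 CPM in controls. No libraries overlapped, and DKO-7137 was again the lowest DKO library (log2 fold change 2.49, SE 0.27, edgeR adjusted p = 0.00015). The endosomal receptors Tlr9 and Tlr8 rose by 1.88 and 1.25 on the log2 scale (edgeR adjusted p = 0.00143 and 0.00154). Mavs, the mitochondrial adaptor of Ifih1 and Ddx58, averaged 90.8 ± 5.25 CPM in DKO livers and 148 ± 12.3 CPM in controls (SD, n = 4 each; log2 fold change -0.70, edgeR adjusted p = 0.000534). Unc93b1 and Tbk1 were not called.

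Among 48 further type I targets that passed the filter DKO livers had 19 higher and 1 lower, with a median of 0.58, against 0.00 in BKO livers. Lgals3bp, a secreted glycoprotein, averaged 181 ± 30.0 CPM in DKO livers and 75.3 ± 10.02 CPM in controls (log2 fold change 1.27, edgeR adjusted p = 0.000144). Slfn2, Slfn1 and Isg20 rose by 1.65, 2.29 and 1.78 on the log2 scale (edgeR adjusted p = 0.000437, 0.000673 and 0.000697), while Lgals9 and Ifitm3 were not called. Of 16 tested negative regulators, Ptpn6 and Samhd1 rose by 0.84 and 0.48 (edgeR adjusted p = 0.000627 and 0.0197), and Rnaseh2c and Trim24 fell by 0.96 and 0.84 (edgeR adjusted p = 0.000405 and 0.0033), all on the log2 scale. Ptpn11 and Adar were not called.

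DKO livers had 2 higher and 2 lower among 12 further GBP and IRG genes that passed the filter, about the share over all genes (19.2% higher, 16.6% lower), so the counts say nothing particular about these genes. Ifi47 and Gbp9 rose by 0.63 and 0.67 on the log2 scale (edgeR adjusted p = 0.0298 and 0.0488), and Irgm2 and Gbp11 were not called. F830016B08Rik had 24.1, 25.3, 48.5 and 23.8 CPM in DKO livers, against 55.2, 79.4, 57.4 and 49.7 CPM in controls (log2 fold change -0.99, edgeR adjusted p = 0.0136). Gm4951 had been listed with the further type I targets, where it was the only lower gene, so it is outside the count of 12. It was singled out after its values were seen. Of the 50-base stretches of the Iigp1 transcript 1.69% are also found in another gene, mainly Gm4951. Gm4951 had 35.8, 53.7, 91.7 and 41.3 CPM in DKO livers, against 105, 112, 134 and 161 CPM in controls (log2 fold change -1.20, edgeR adjusted p = 0.0108). In both, as in Iigp1, DKO-7112 was the highest DKO library. Tgtp1, another IRG, averaged 1.06 ± 0.736 CPM in DKO livers and 3.21 ± 1.23 CPM in controls (log2 fold change -1.56, edgeR adjusted p = 0.0424). Its call rests on few counts, 19, 19, 8 and 1 in the DKO libraries. The DKO effect minus the BKO effect was -1.44 for Tgtp1 and 1.37 for Tgtp2 (edgeR adjusted p = 0.12 and 0.196). Whether Tgtp1 and Tgtp2 share reads was not examined.

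Further type II targets were higher for 14 of 25 tested genes and lower for 3, with a median of 0.57 in DKO livers and -0.11 in BKO livers. Cxcl10, a chemokine that attracts T cells, had 17.9, 25.5, 15.3 and 14.7 CPM in DKO livers, against 4.59, 2.67, 3.59 and 3.15 CPM in controls. The groups were far apart (log2 fold change 2.39, SE 0.23, edgeR adjusted p = 5.07e-05). Ciita, the switch for MHC class II genes, rose by 1.72, the IL-18 binder Il18bp, also on the Kupffer cell list, by 1.15 and the Fc receptor Fcgr1 by 1.70 on the log2 scale (edgeR adjusted p = 0.000177, 0.000162 and 0.000339). The 3 lower genes, named for that reason, were Ido2, Apol9b and B2m, which fell by 3.40, 1.80 and 0.47 on the log2 scale (edgeR adjusted p = 0.00194, 0.00771 and 0.0455). Serping1 and Psme1 were not called.

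Summed markers of recruited macrophages and plasmacytoid dendritic cells were higher in DKO livers, while those of Kupffer cells overlapped their controls through WT-7069 alone. In whole tissue a change in the number of cells of a type cannot be told apart from a change in RNA per cell. Of 13 tested recruited macrophage markers 12 were higher in DKO livers, and the sum of all 16 was 6868 to 10703 CPM in DKO livers, against 3602 to 4369 CPM in controls. Most of this sum is Fn1, which hepatocytes also make. Without Fn1 it was 532 CPM for DKO-7068, 401 CPM for DKO-7070, 1012 CPM for DKO-7112 and 177 CPM for DKO-7137, against 43.3 to 50.8 CPM in controls. DKO-7137 was thus the lowest DKO library here as for most members, and DKO-7112 the highest, while Gbp2 was at its lowest DKO level in DKO-7112. Bile duct markers summed to 529, 429, 975 and 160 CPM in the same DKO libraries, against 77.6 to 197 CPM in controls. The bile duct and macrophage sums thus ranked the DKO libraries alike. Whether the macrophage list reports on macrophages alone was not tested. Plasmacytoid dendritic cell markers (without Bst2, 4 of 6 tested higher) summed to 64.2, 64.9, 133 and 61.7 CPM in the same DKO libraries, against 31.0 to 47.3 CPM in controls. DKO-7112 was the highest here too. Of these markers Ly6d had the largest DKO effect over the BKO effect, 9.34 (edgeR adjusted p = 0.00881). That difference was not called for Ccr9, Tcf4 or Klk1. Whether this list reports on plasmacytoid dendritic cells alone was not tested. Kupffer cell markers, 6 of 15 higher and 1 lower, summed to 864 to 950.1 CPM in DKO livers, against 704, 1029.8, 676 and 657 CPM in controls. T and NK cell markers, 1 of 3 tested higher, summed to 14.002 to 22.04 CPM in DKO livers, against 8.83 to 12.1 CPM in controls.

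Markers of the labelled tissue were abundant in every library. Hepatocyte markers, 1 of 12 higher and 6 lower, summed to 102121 to 123879 CPM in DKO livers, against 150089 to 180154 CPM in controls, with DKO-7137 the highest DKO library. In BKO livers they summed to 130257 to 152891 CPM, against 121906 to 132479 CPM in controls. No marker of these lists was at 0 counts in all libraries of either group of the DKO experiment. The part of these cell types in the change of the list was not tested.

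**Figure D5:**
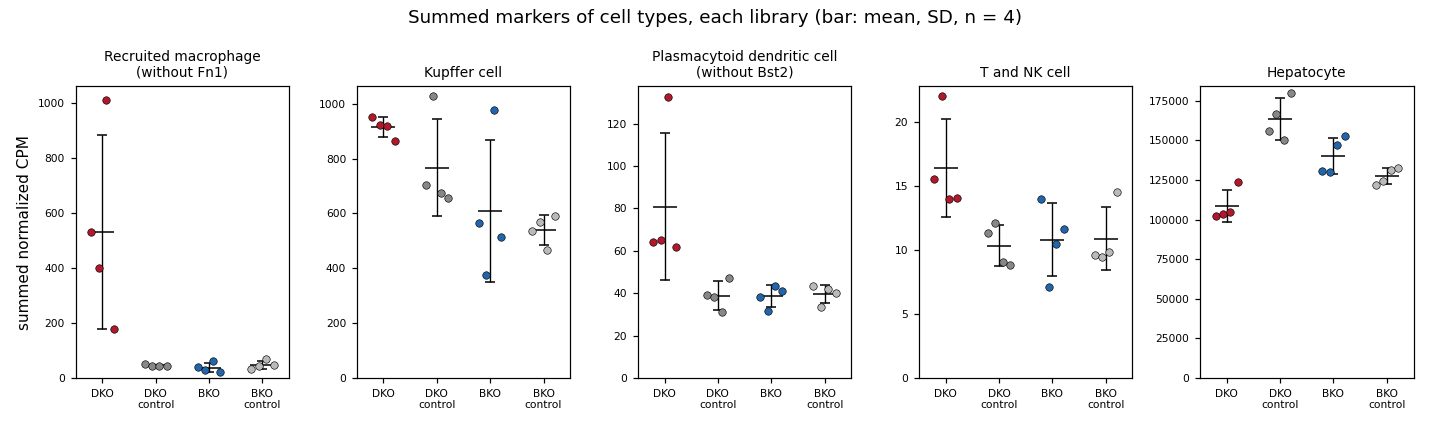
Summed normalized CPM (y axes, from 0, with a scale of its own in each panel) of 5 lists of cell type markers in each of the 16 libraries by group, with the mean and SD over n = 4 libraries. Recruited macrophage markers without Fn1 are at 177 to 1012 CPM in DKO livers, above all other groups, and hepatocyte markers are lower in DKO livers than in their controls.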

How the data were processed

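Total RNA of mouse livers was extracted with TRIzol and RNeasy kits and made into libraries with the Nugen Ovation system, per the labels' protocols. The authors deposited raw read counts per gene in a table for each knockout; Trim Galore 0.4.1, HISAT2 2.1.0, featureCounts 1.6.2 and the builds GRCm38, mm10 and GRCh38 are listed, without role, per the submitters' processing notes. Strand setting, annotation and the treatment of reads shared by genes are not stated. Even counts are common in the BKO table, and 27 of its gene names had turned into dates; no member was among them.

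Genes were filtered with filterByExpr, scaled by TMM and tested with edgeR 4.0.16 (robust quasi-likelihood, R 4.3.3) for each knockout against its own 4 controls, and for the difference of both effects over 16 libraries and the 24394 genes named in both tables. Standard errors were derived from the fitted log2 fold change and its F statistic. Adjusted p-values are Benjamini-Hochberg values over all genes tested, called under 0.05. Alternatives were other scalings and filters, DESeq2 1.42.0 and limma 3.58.1 with voom. Others were the number series (70 or 71) as a batch term, summed libraries and each library left out. The fit was tested on simulated data.

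The members and lists were chosen with earlier results of these data known. Members were given by library where called, or where Ifit1, Mx1, Irf7, Stat2 or Rsad2; Oasl1, Ifit3, Gbp7 and Igtp were added after their values were seen. Of each further list, up to 4 called genes by p and up to 2 uncalled genes by level were named, together with all receptors and kinases; other names are stated as chosen afterwards, and Tgtp1 is 1 of the 4 called GBP and IRG genes. Gene positions and exon lengths come from GENCODE M21, and promoters from RefSeq on GRCm38.p6, of which those of 10 members were not used here. Depth differs between the experiments, so levels were compared only within each. SDs describe the spread between libraries and standard errors come from the fitted model, while the floor of 3 counts covers counting error only.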

Additional observations from a re-analysis of the deposited data

Results flagged for a closer look

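Within each group of 4 libraries, 148 sets of member values were checked for a library far from the others, and 9 passed Dixon's critical value, where chance gives about 1 in 20. In DKO livers, Irf9 was low in DKO-7137 at 32.1 CPM (others 38.1 to 39.3 CPM) and Parp9 high in DKO-7112 at 86.4 CPM (68.7 to 70.4 CPM). In their controls, Xaf1 was low in WT-7069 at 2.48 CPM (4.59 to 4.94 CPM). In BKO livers, Irf1 was high in F3 at 35.1 CPM (19.8 to 21.9 CPM), Dhx58 low in F6 at 7.92 CPM (12.1 to 12.8 CPM), and F4 high for Rsad2 at 11.51 CPM (9.62 to 9.86 CPM) and for Ifi44 at 12.8 CPM (7.15 to 7.41 CPM). Among the BKO controls, F5-2 was high for Gbp4 at 13.5 CPM (6.29 to 7.41 CPM) and low for Ifi44 at 7.19 CPM (10.8 to 11.4 CPM).

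The DKO and BKO effects differed, by edgeR's test of the difference, for 8 members. The DKO effect was larger by 3.39 for Gbp2, 1.76 for Isg15, 1.39 for Mx2, 1.36 for Ifit2, 1.33 for Gbp6, 1.32 for Oasl2, 0.79 for Oas2 and 0.59 for Ifih1, all on the log2 scale.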

How the results depend on the processing

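Across 847 values recomputed under the alternatives, 0 changed direction among called results. Of the single member effects 606 kept their sign and their side of the threshold, 40 lost the call and 5 gained it. Another 10, uncalled in both fits, changed sign. Of the counts and medians 169 kept their size and 17 moved. The 12 members higher in DKO livers were called under all 18 alternatives, among them the number series as a batch term. Leaving out 1 library gave 12 to 21 members higher and 0 to 1 lower in DKO livers, with 21 without DKO-7137; 0 were lower with DKO-7068 and DKO-7070 summed and with scaling by total counts only. For the difference, leaving out 1 library gave 5 to 14 members higher and 0 to 1 lower, the 1 being Iigp1 without DKO-7112. In BKO livers DESeq2 called 1 member lower, and the GBP and IRG median ranged from -0.384 to -0.0902 with 1 library left out, the upper end without control F5-2.

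Scaling by total counts only moved the median of all genes in DKO livers to 0.20, against 0.02, with 17 members higher beside 25.4% of all genes, and the share of calls that were higher to 72.0%, against 53.6%. For the difference it gave 15 members higher beside 18.7% of all genes, with 77.9% of calls higher, against 49.1%; in BKO livers the share was 20.4%, against 31.7%. The cause was not tested. No paired analysis was possible because the replicate numbers follow accession order and the labels link no animals across groups. Genes with few counts, such as Oas1g with 60 counts over the 4 controls, limit what could be called.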

Other observations

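Values of the other marker lists in DKO livers are given without a test of any list, and are to be read against 19.2% of all genes called higher and 16.6% lower. Stellate cell markers were higher for 9 of 12 genes and lower for 1, with a sum of 2049 to 3074 CPM in DKO livers against 468 to 678 CPM in controls. Neutrophil markers were higher for 3 of 3 tested genes, with a sum of 12.7 to 70.6 CPM in DKO livers against 3.53 to 7.35 CPM in controls. Bile duct markers were higher for 4 of 7 tested genes, with overlapping sums of 160.2 to 975 CPM in DKO livers against 77.6 to 197 CPM in controls. Endothelial markers were lower for 4 of 14 genes and higher for 1, and their sums overlapped, at 840.1 to 918 CPM in DKO livers, against 874 to 1071 CPM in controls. B cell markers, of which 2 passed the count filter and neither was called, had overlapping sums of 5.54 to 7.11 CPM in DKO livers, against 3.69 to 6.40 CPM in controls. Conventional dendritic cell markers, 2 of 6 tested higher, summed to 21.3 to 28.4 CPM in DKO livers, against 17.4 to 20.98 CPM in controls.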
